A study of Mus musculus with 9 samples.

Results

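Polycomb repressive complex 2 (PRC2) and the enzymes of DNA methylation set repressive marks on chromatin, and 10 of their genes are described here across cells with shRNAs against a circular RNA, cells with shRNAs against the linear transcript of its gene, and scramble. The genes were chosen by name, with earlier results of these data known. Each of the symbols Ezh1, Ezh2, Eed, Suz12, Jarid2, Dnmt1, Uhrf1, Dnmt3a, Dnmt3b and Tet1 matched 1 row of the deposited table of 53379 gene IDs, and all 10 passed the filter on low counts that left 17760 genes to test. All groups were C57BL/6 mouse embryos whose cortex was electroporated in utero at embryonic day E13.5 and collected at E15.5, 48 hours later. In every group the GFP+ cells, those that had taken up the plasmids, were isolated by FACS (sorting by fluorescence), RNA was extracted with Trizol, and polyA RNA was sequenced from Illumina TruSeq libraries. The circSlc45a4-shRNA cells received 3 short hairpin RNAs (shRNAs) against circSlc45a4, a circular RNA of the Slc45a4 gene. The mRNA-shRNA cells received 2 shRNAs against the linear mRNA, and scramble received 1 scrambled sequence. The circSlc45a4-shRNA and mRNA-shRNA cells are together called the knockdowns. Each group held 3 biological replicates. A circular RNA has no polyA tail, so the level of circSlc45a4 itself was not read.

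PRC2 places methyl groups on lysine K27 of histone H3 (the mark H3K27me3). Ezh2 or its paralog Ezh1 is the catalytic subunit, Eed and Suz12 are core subunits without which the enzyme is inactive, and Jarid2 is an accessory subunit that helps bring the complex to its targets. DNA methylation is copied after replication by Dnmt1, which Uhrf1 brings to hemimethylated CpGs, and is set anew by Dnmt3a and Dnmt3b, while Tet1 oxidises 5-methylcytosine as a first step of its removal. In the developing cortex PRC2 is known for timing the production of neurons and glia by neural progenitors, Dnmt1 and Uhrf1 are typical of dividing cells, and Dnmt3a is the main de novo enzyme of the neural lineage.

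Total counts ranged from 21073174 to 45469298 per library, and levels are given as CPM, counts relative to library size, scaled by the trimmed mean of M-values (TMM). The linear Slc45a4 transcript was read at 25.4, 25.3 and 24.7 CPM in replicates 1, 2 and 3 of circSlc45a4-shRNA cells and at 13.3, 18.5 and 17.4 CPM in those of mRNA-shRNA cells, against 31.4, 33.6 and 33.96 CPM in those of scramble. It was lower in mRNA-shRNA cells than in scramble by a log2 fold change of -1.01 ± 0.12 (SE, edgeR quasi-likelihood test with Benjamini-Hochberg adjustment over all genes tested, adjusted p = 1.08e-04). In circSlc45a4-shRNA cells it was lower by -0.39 ± 0.12 (edgeR adjusted p = 0.0245), a call that ended without any 1 of circSlc45a4-shRNA replicates 1, 2 and 3 or scramble replicates 2 and 3 (-0.37 to -0.40, adjusted p = 0.0659 to 0.0866) and with the Xist level as a covariate (-0.23, adjusted p = 0.581). Xist, which coats the inactive X, was read at 635, 264 and 428 CPM in circSlc45a4-shRNA cells and at 1550, 637 and 0.194 CPM in mRNA-shRNA cells, against 0.239, 0.0648 and 0.0617 CPM in scramble. Xist therefore split the libraries into 5 with it and 4 without, every circSlc45a4-shRNA library was in the first set and every scramble library in the second, so no comparison of these groups could be made within a set. Markers fitted the labelled tissue: a list of 17 markers of newborn neurons summed to 6485 to 9022 CPM per library and a list of 21 markers of apical progenitors, the stem cells at the ventricle, to 1781 to 3480 CPM, while 11 microglial markers summed to 6.14 to 15.8 CPM and 9 endothelial markers to 1.25 to 5.22 CPM.

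Promoter sequences are shown for the 4 members whose promoters hold a match to E2F. This factor drives genes of DNA replication in dividing cells. Of the 4, Uhrf1, Dnmt1 and Ezh2 differed between the knockdowns and Suz12 did not. A part of E2F in these differences was not tested. They come from RefSeq (GRCm38.p6) and run from 250 bases before to 50 bases after a gene's start, and all 10 genes matched, with 16 promoters. The letters searched, on both strands, were TTTCCCGC, TTTGGCGC, TTTCGCGC and TTTGCCGC. Capitals mark a match, and a match on the minus strand appears as its reverse complement. Uhrf1 has 2 listed promoters and Dnmt1 has 3, of which the 1 with a match is shown. The Uhrf1 promoter is at chr17:56304063-56304362 on the plus strand, the Dnmt1 promoter at chr9:20952574-20952873 on the minus strand, the Ezh2 promoter at chr6:47594981-47595280 on the minus strand and the Suz12 promoter at chr11:79992856-79993155 on the plus strand.
Uhrf1: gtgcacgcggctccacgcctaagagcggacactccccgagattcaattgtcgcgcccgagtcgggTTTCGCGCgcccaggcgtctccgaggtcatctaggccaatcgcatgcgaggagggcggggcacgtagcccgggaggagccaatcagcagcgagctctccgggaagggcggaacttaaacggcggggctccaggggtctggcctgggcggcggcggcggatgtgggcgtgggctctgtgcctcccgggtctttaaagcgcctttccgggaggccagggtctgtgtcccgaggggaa
Dnmt1: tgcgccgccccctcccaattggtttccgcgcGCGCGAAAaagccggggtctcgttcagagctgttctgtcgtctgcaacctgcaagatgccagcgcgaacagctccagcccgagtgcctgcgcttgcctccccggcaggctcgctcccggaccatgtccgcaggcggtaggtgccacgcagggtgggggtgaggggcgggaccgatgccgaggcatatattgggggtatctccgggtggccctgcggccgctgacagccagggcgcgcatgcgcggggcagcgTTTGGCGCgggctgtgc
Ezh2: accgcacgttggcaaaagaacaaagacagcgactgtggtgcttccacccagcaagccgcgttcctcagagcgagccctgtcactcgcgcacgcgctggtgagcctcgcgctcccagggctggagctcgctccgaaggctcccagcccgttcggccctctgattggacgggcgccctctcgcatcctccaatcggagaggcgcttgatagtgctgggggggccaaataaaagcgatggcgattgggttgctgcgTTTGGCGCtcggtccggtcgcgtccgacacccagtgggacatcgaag
Suz12: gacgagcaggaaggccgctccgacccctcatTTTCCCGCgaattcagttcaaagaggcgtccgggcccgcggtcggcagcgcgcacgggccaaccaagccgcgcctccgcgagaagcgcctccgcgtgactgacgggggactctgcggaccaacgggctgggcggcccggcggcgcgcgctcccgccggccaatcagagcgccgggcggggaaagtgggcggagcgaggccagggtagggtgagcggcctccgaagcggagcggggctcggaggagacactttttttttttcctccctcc
The match began 185 bases before the start in Uhrf1, 219 before and 33 after the start in Dnmt1, 3 after the start in Ezh2 and 219 before the start in Suz12. Of all 32851 promoters of this length 744 (2.26%) hold a match, and of the 16 promoters of the members 4 (25%). The members' promoters are richer in CpG than most, with 2 to 47 CpGs (median 23.5) against a median of 7 over all promoters. Every string of letters searched holds a CpG, and the shares were not compared among promoters of like CpG content. No match was found in the promoters of Ezh1, Eed, Jarid2, Dnmt3a, Dnmt3b and Tet1, which says only that these letters are not in those windows.

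Per length of exon, Ezh2 had the highest level of the 10 genes in each group and Dnmt3b the lowest. In RPKM, which is CPM per kilobase of exon, Ezh2 stood at 31.6 ± 0.89 in circSlc45a4-shRNA cells, 40.5 ± 4.44 in mRNA-shRNA cells and 36.9 ± 3.35 in scramble (SD, n = 3 each). Dnmt3b stood at 0.73 ± 0.19, 1.19 ± 0.12 and 1.18 ± 0.26 RPKM in these groups in the same order. In scramble the order of mean RPKM below Ezh2 was Dnmt1 (28.6), Suz12 (27.8), Uhrf1 (19.0), Jarid2 (10.6), Eed (10.2), Dnmt3a (4.09), Tet1 (3.11), Ezh1 (3.09) and Dnmt3b. The ranges of neighbours overlapped for Dnmt1 and Suz12, for Jarid2 and Eed, and for Tet1 and Ezh1, and the other neighbours did not overlap. In circSlc45a4-shRNA cells Uhrf1 stood at 10.9 ± 0.83 RPKM, below Eed at 11.2 ± 0.40 RPKM with overlapping ranges, whereas in mRNA-shRNA cells it stood at 23.1 ± 2.44 RPKM, above Eed at 12.6 ± 1.72 RPKM. With the length of the longest transcript in place of all exons, Eed came before Jarid2 and Ezh1 before Tet1 in scramble, so the order within these pairs rests on the length chosen.

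**Figure D1:**
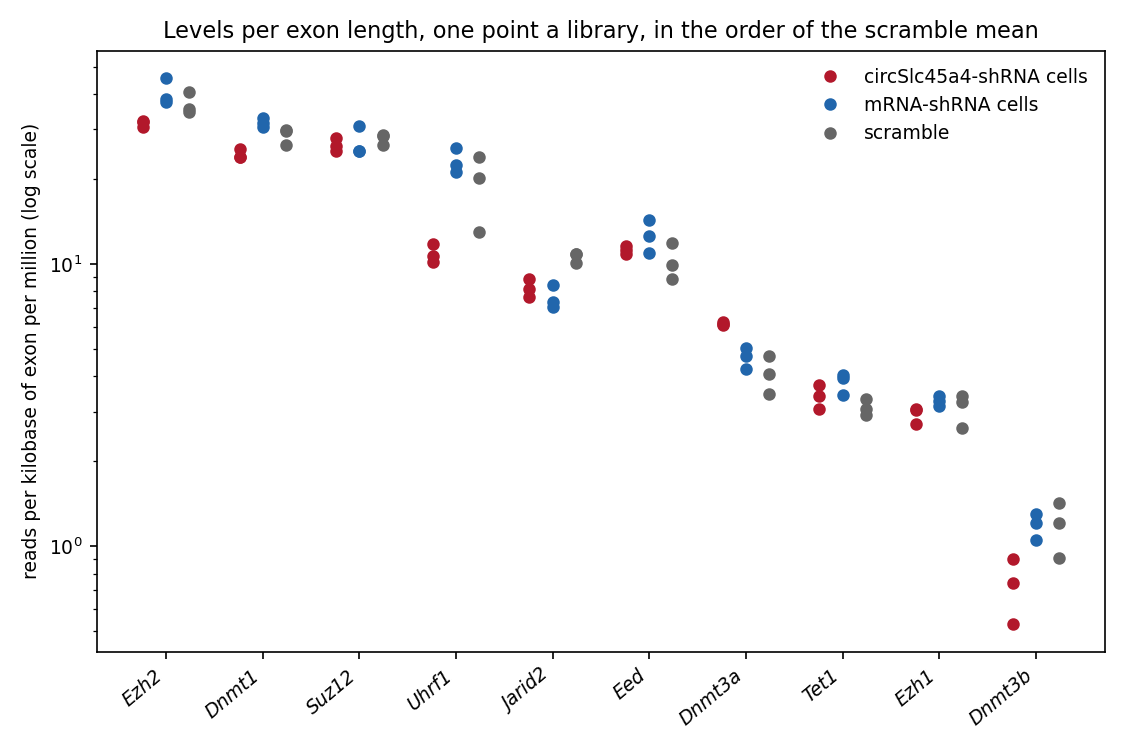
Level of the 10 genes per exon length, in RPKM on a log axis, with 1 point for each library of circSlc45a4-shRNA cells (red), mRNA-shRNA cells (blue) and scramble (grey). Ezh2, Dnmt1 and Suz12 lie highest and Dnmt3b lowest, and the circSlc45a4-shRNA points of Uhrf1 (mean 10.9) lie below those of scramble (mean 19.0).

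In circSlc45a4-shRNA cells, transcripts of the maintenance methylation pair Uhrf1 and Dnmt1, of Dnmt3b and of Jarid2 were lower than in scramble, and Dnmt3a was higher. These are 5 of the 10 genes, 1 higher and 4 lower, where 27.1% of all tested genes passed the test (14.1% higher and 13.0% lower). The 2 groups did not overlap for 6 of the 10, against 43.9% of all tested genes. The median log2 fold change was -0.15 over the 10 genes and -0.01 over all tested genes. In mRNA-shRNA cells 1 of the 10, Jarid2, differed from scramble, and it was lower, where 18.0% of all genes passed (8.92% higher and 9.09% lower). The groups did not overlap for 3 of the 10, against 36.1% of all genes, and the median was 0.14 against 0.01. In the direct comparison of circSlc45a4-shRNA cells with mRNA-shRNA cells, Uhrf1, Dnmt1, Dnmt3b and Ezh2 were lower and Dnmt3a higher, 5 of 10 where 26.1% of all genes passed (13.8% higher and 12.3% lower). There 6 of the 10 did not overlap, against 40.1% of all genes, and the median was -0.17 against -0.02. The comparisons with scramble share the scramble libraries. With the Xist level as a covariate, none of the 10 passed the edgeR test in circSlc45a4-shRNA cells against scramble, where Uhrf1 had -0.82 (adjusted p = 0.134) and Dnmt3a 0.63 (adjusted p = 0.0648). Without the covariate these fold changes were -0.81 and 0.59. Xist followed the groups in that comparison, so the fit could not separate its level from the group. A call lost there with the covariate does not show that the difference was absent. The same 5 genes passed in the comparison of circSlc45a4-shRNA cells with mRNA-shRNA cells when mRNA-shRNA replicate 3 was left out, so that every library compared had Xist. The Xist level was still not matched, at 264 to 635 CPM in circSlc45a4-shRNA cells against 637 and 1550 CPM in mRNA-shRNA cells. In RNA from sorted pools, fewer cells of a type and less RNA per cell cannot be told apart.

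**Figure D2:**
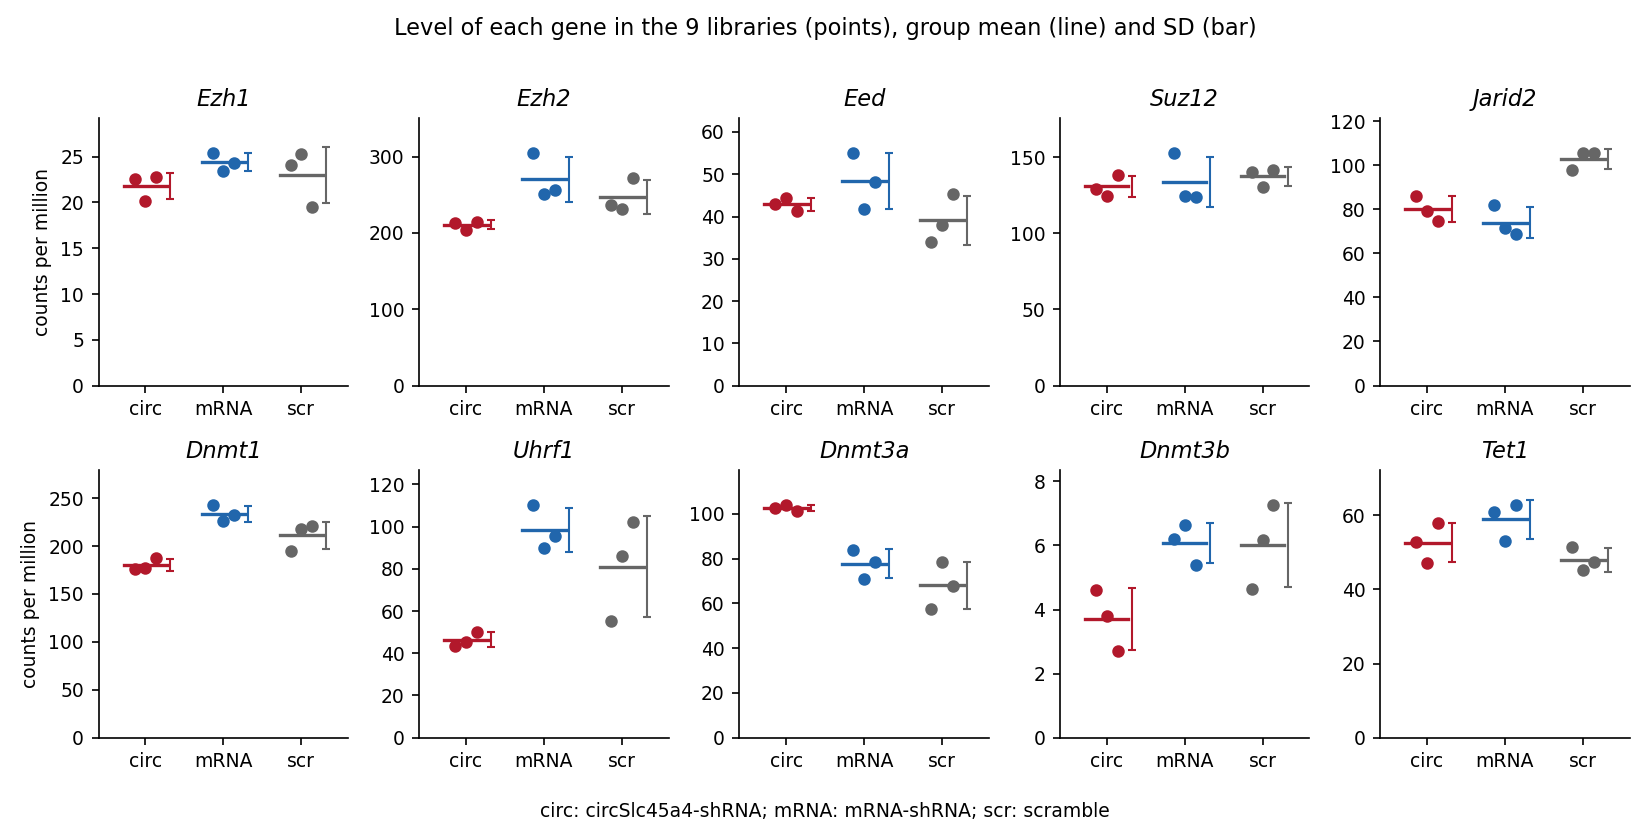
Level of each of the 10 genes in CPM (vertical axes start at 0) in the 3 libraries of circSlc45a4-shRNA cells (circ), mRNA-shRNA cells (mRNA) and scramble (scr), in the order of replicates 1, 2 and 3 from left to right, with the group mean as a line and the SD as a bar. Uhrf1 lies between 43.4 and 50.3 CPM in circSlc45a4-shRNA cells, below all other libraries, and Dnmt3a lies above all other libraries there.

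Of the catalytic subunits of PRC2, Ezh2 was lower in circSlc45a4-shRNA cells than in mRNA-shRNA cells and Ezh1 passed no test. Ezh2 (chromosome 6, 47530139 to 47595341, minus strand, GRCm38) was read at 213, 204 and 215 CPM in circSlc45a4-shRNA cells and at 305, 251 and 256 CPM in mRNA-shRNA cells, against 236, 232 and 272 CPM in scramble. All circSlc45a4-shRNA libraries lay below all others, and mRNA-shRNA replicate 1 lay highest. The log2 fold change between the knockdowns was -0.36 ± 0.09 (edgeR adjusted p = 0.0119). Against scramble Ezh2 had -0.23 ± 0.09 in circSlc45a4-shRNA cells (edgeR adjusted p = 0.0865) and 0.13 ± 0.09 in mRNA-shRNA cells (adjusted p = 0.349). The first of these passed the threshold without mRNA-shRNA replicate 1 (-0.22, edgeR adjusted p = 0.0381), with upper-quartile factors (-0.28, 0.0388) and with only the 6 libraries of both groups (-0.23, 0.046). Ezh1, the paralog that persists in cells that have stopped dividing, was read at 22.6, 20.2 and 22.7 CPM in circSlc45a4-shRNA cells and at 25.4, 23.4 and 24.3 CPM in mRNA-shRNA cells, against 24.1, 25.3 and 19.5 CPM in scramble. Its log2 fold changes were -0.07 (95% interval -0.32 to 0.17, unadjusted) and 0.09 (-0.16 to 0.33) against scramble and -0.16 (-0.40 to 0.08) between the knockdowns, with edgeR adjusted p from 0.335 to 0.682. The log2 ratio of Ezh2 to Ezh1 within a library, in reads per kilobase, averaged 3.43 ± 0.06 in circSlc45a4-shRNA cells, 3.62 ± 0.10 in mRNA-shRNA cells and 3.58 ± 0.33 in scramble (SD, n = 3 each). An exact 2-sided permutation test gave p = 0.7 and 0.9 for the knockdowns against scramble and 0.1 between them, where 0.1 is the smallest p that 3 against 3 libraries allow, and Benjamini-Hochberg values over 6 such tests were 0.84, 0.9 and 0.2.

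The core subunits Eed and Suz12 passed no test. Suz12 had 129, 125 and 139 CPM in circSlc45a4-shRNA cells and 153, 125 and 124 CPM in mRNA-shRNA cells, against 140, 130 and 142 CPM in scramble. The groups overlapped in every comparison, and the 95% intervals of its log2 fold changes ran from -0.27 to 0.12 and from -0.23 to 0.16 against scramble and from -0.23 to 0.16 between the knockdowns. Eed had 42.9, 44.5 and 41.4 CPM in circSlc45a4-shRNA cells and 55.0, 41.8 and 48.2 CPM in mRNA-shRNA cells, against 33.9, 38.1 and 45.4 CPM in scramble. Its largest log2 fold change was 0.30 ± 0.12, in mRNA-shRNA cells against scramble (edgeR adjusted p = 0.0996), with overlapping groups. That difference passed without mRNA-shRNA replicate 2 (0.40, edgeR adjusted p = 0.0487) or scramble replicate 3 (0.43, adjusted p = 0.0393).

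Jarid2 (chromosome 13, 44729474 to 44921643, plus strand) was lower than scramble in both knockdowns. It was read at 86.2, 79.0 and 74.6 CPM in circSlc45a4-shRNA cells and at 81.8, 71.3 and 68.6 CPM in mRNA-shRNA cells, against 97.7, 105 and 105 CPM in scramble. Every knockdown library lay below every scramble library, and the knockdowns overlapped each other. The log2 fold changes were -0.36 ± 0.09 in circSlc45a4-shRNA cells (edgeR adjusted p = 0.00768) and -0.48 ± 0.09 in mRNA-shRNA cells (adjusted p = 0.00235). Between the knockdowns the difference was 0.11 (95% interval -0.08 to 0.30, edgeR adjusted p = 0.379). With the Xist level as a covariate the values were -0.52 (adjusted p = 0.0593) and -0.60 (adjusted p = 0.0241).

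Uhrf1 (chromosome 17, 56303321 to 56323486, plus strand), the reader of hemimethylated DNA, had the largest fold change of the 10 genes. It was read at 43.4, 45.5 and 50.3 CPM in circSlc45a4-shRNA cells and at 110, 90.0 and 95.5 CPM in mRNA-shRNA cells, against 55.2, 86.0 and 102 CPM in scramble. All circSlc45a4-shRNA libraries lay below all others, scramble replicate 1 was the lowest of the rest, and mRNA-shRNA cells overlapped scramble. Uhrf1 was 2.12-fold lower in circSlc45a4-shRNA cells than in mRNA-shRNA cells (log2 fold change -1.09 ± 0.17, edgeR adjusted p = 4.94e-04) and 1.75-fold lower than in scramble (-0.81 ± 0.17, adjusted p = 0.00314). In mRNA-shRNA cells against scramble it had 0.28 ± 0.17 (edgeR adjusted p = 0.274). That difference passed without a filter on low counts (0.27, edgeR adjusted p = 0.0473). Dnmt1 (chromosome 9, 20907209 to 20959888, minus strand), the maintenance methyltransferase, followed the same order with smaller differences. It was read at 176, 177 and 188 CPM in circSlc45a4-shRNA cells and at 243, 226 and 233 CPM in mRNA-shRNA cells, against 195, 218 and 221 CPM in scramble, and the 3 groups did not overlap. Its log2 fold change was -0.37 ± 0.08 between the knockdowns (edgeR adjusted p = 0.00292). Against scramble it had -0.23 ± 0.08 in circSlc45a4-shRNA cells (edgeR adjusted p = 0.0387) and 0.15 ± 0.08 in mRNA-shRNA cells (adjusted p = 0.202). The call against scramble ended without circSlc45a4-shRNA replicate 1 (-0.21, edgeR adjusted p = 0.113) or 2 (-0.22, 0.1003), scramble replicate 2 (-0.20, 0.144) or 3 (-0.19, 0.149), or mRNA-shRNA replicate 3, which belongs to neither group (-0.22, 0.0563), and without a filter on low counts (-0.23, 0.0773).

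Dnmt3a (chromosome 12, 3806007 to 3914443, plus strand), the main de novo methyltransferase, was the member that was higher in circSlc45a4-shRNA cells. It was read at 102, 104 and 101 CPM there and at 83.7, 70.9 and 78.6 CPM in mRNA-shRNA cells, against 57.6, 78.5 and 68.0 CPM in scramble. All circSlc45a4-shRNA libraries lay above all others, while mRNA-shRNA cells overlapped scramble. Dnmt3a was 1.5-fold higher in circSlc45a4-shRNA cells than in scramble (log2 fold change 0.59 ± 0.10, edgeR adjusted p = 0.00107) and 1.32-fold higher than in mRNA-shRNA cells (0.40 ± 0.10, adjusted p = 0.0128). mRNA-shRNA cells had 0.19 ± 0.10 against scramble (edgeR adjusted p = 0.229). Dnmt3b (chromosome 2, 153649450 to 153687730, plus strand), the de novo enzyme of the early embryo, was the least abundant member. It was read at 4.61, 3.80 and 2.70 CPM in circSlc45a4-shRNA cells and at 6.19, 6.63 and 5.40 CPM in mRNA-shRNA cells, against 4.64, 6.16 and 7.26 CPM in scramble. CircSlc45a4-shRNA replicate 1 lay just under scramble replicate 1, and circSlc45a4-shRNA cells did not overlap either group. Dnmt3b was lower in circSlc45a4-shRNA cells than in scramble (log2 fold change -0.71 ± 0.22, edgeR adjusted p = 0.0301) and than in mRNA-shRNA cells (-0.71 ± 0.22, adjusted p = 0.0286). The call against scramble ended without circSlc45a4-shRNA replicate 2 (-0.73, edgeR adjusted p = 0.07) or 3 (-0.52, 0.106) or scramble replicate 2 (-0.69, 0.0848) or 3 (-0.55, 0.132). That between the knockdowns ended without circSlc45a4-shRNA replicate 2 (-0.72, edgeR adjusted p = 0.0699) or 3 (-0.53, 0.0998) or mRNA-shRNA replicate 1 (-0.70, 0.058) or 2 (-0.64, 0.0885). The log2 ratio of Dnmt3a to Dnmt3b, in reads per kilobase, was 2.77, 3.07 and 3.52 in circSlc45a4-shRNA cells and 2.05, 1.71 and 2.16 in mRNA-shRNA cells, against 1.93, 1.97 and 1.52 in scramble. The mean was 3.12 ± 0.38 in circSlc45a4-shRNA cells, 1.98 ± 0.23 in mRNA-shRNA cells and 1.81 ± 0.25 in scramble (SD, n = 3 each). CircSlc45a4-shRNA cells lay above both other groups, each difference with an exact permutation p of 0.1, the smallest possible, and a Benjamini-Hochberg value of 0.2 over the 6 ratio tests.

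Tet1 passed no test of edgeR with the settings used throughout. It was read at 52.7, 47.3 and 57.8 CPM in circSlc45a4-shRNA cells and at 61.0, 52.9 and 62.7 CPM in mRNA-shRNA cells, against 51.4, 45.2 and 47.3 CPM in scramble. mRNA-shRNA cells lay above scramble in all libraries, with a log2 fold change of 0.30 ± 0.10 (edgeR adjusted p = 0.0557), which passed without mRNA-shRNA replicate 2 (0.37, adjusted p = 0.0325), without a filter (0.0432), with a filter of 1 CPM in 3 libraries (0.0498) and with the Wald test of DESeq2 (0.0408). CircSlc45a4-shRNA cells had 0.13 (95% interval -0.08 to 0.35, edgeR adjusted p = 0.355) against scramble and -0.16 (-0.38 to 0.05, adjusted p = 0.252) against mRNA-shRNA cells.

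**Figure D3:**
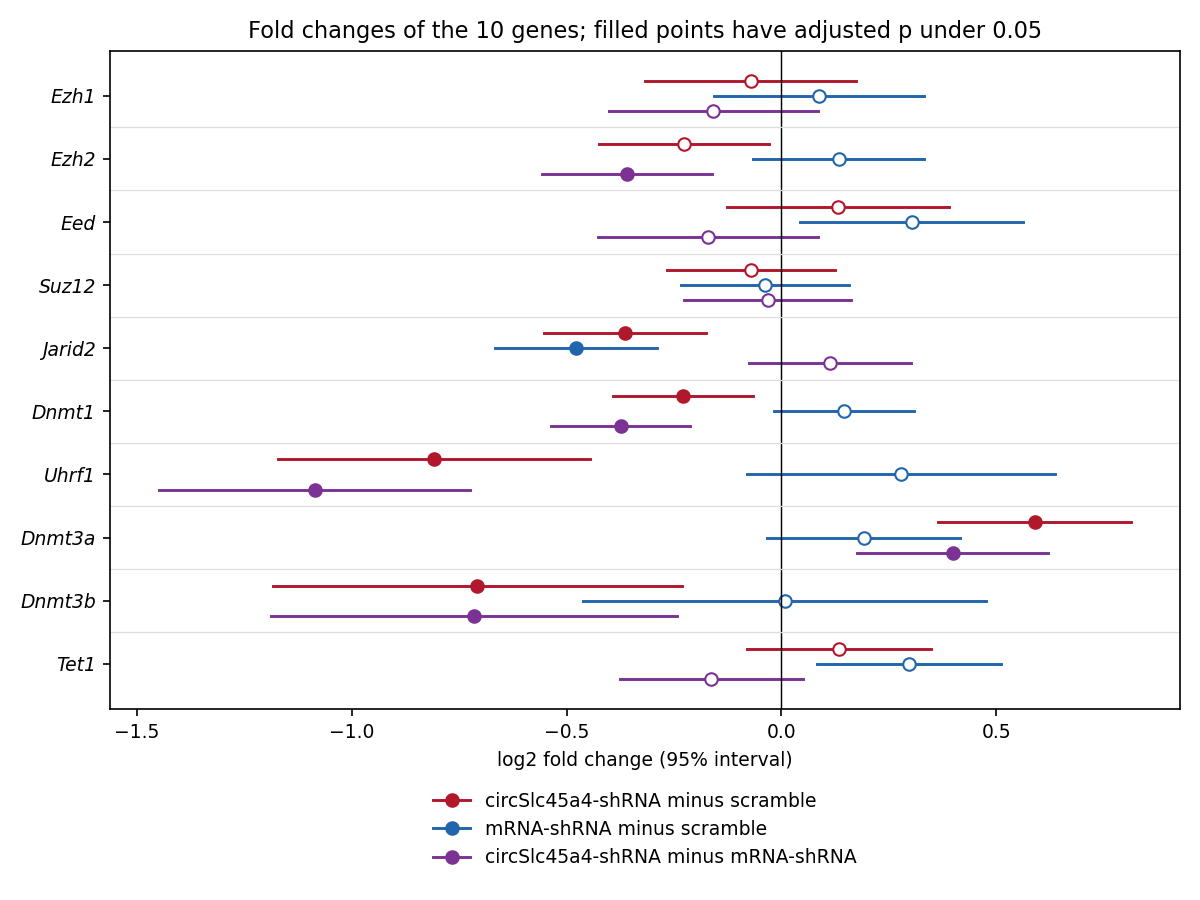
Log2 fold change of each gene with its unadjusted 95% interval (horizontal axis) for circSlc45a4-shRNA cells minus scramble (red), mRNA-shRNA cells minus scramble (blue) and circSlc45a4-shRNA cells minus mRNA-shRNA cells (purple), where filled points have an edgeR adjusted p under 0.05. Jarid2 is the 1 gene filled in both comparisons with scramble (-0.36 and -0.48), and Uhrf1 lies farthest from 0 (-1.09).

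Genes of DNA replication and division were lower in circSlc45a4-shRNA cells than in mRNA-shRNA cells, as Uhrf1, Dnmt1 and Ezh2 were. For the counts below, 27.1% of all tested genes were called in circSlc45a4-shRNA cells against scramble. The share was 18.0% in mRNA-shRNA cells against scramble and 26.1% between the knockdowns. A list of 32 S phase genes, which holds none of the 10 members, had a mean log2 CPM of 4.83, 4.88 and 5.06 in replicates 1, 2 and 3 of circSlc45a4-shRNA cells and of 5.83, 5.56 and 5.59 in those of mRNA-shRNA cells, against 5.03, 5.42 and 5.62 in those of scramble. As for Uhrf1, scramble replicate 1 was the lowest library outside circSlc45a4-shRNA cells, and for the list it overlapped that group. In circSlc45a4-shRNA cells against scramble 19 of the 32 were lower and 1 higher (median log2 fold change -0.45), a count of lower genes that was 8 without circSlc45a4-shRNA replicate 1 or scramble replicate 3, 10 and 11 without scramble and circSlc45a4-shRNA replicate 2, and 26 without scramble replicate 1. In mRNA-shRNA cells against scramble 9 were higher and 1 lower (median 0.31), and without 1 library the count of higher genes ran from 4 (scramble replicate 2) to 13 (scramble replicate 3), with 5 without scramble replicate 1 and 6 without mRNA-shRNA replicate 1. With the Xist covariate 2 were lower in circSlc45a4-shRNA cells than in scramble and 1 higher in mRNA-shRNA cells than in scramble. Between the knockdowns 29 were lower and 1 higher in circSlc45a4-shRNA cells (median -0.80), with 28 lower with the covariate. Of 26 genes of G2 and M phase, 20 were lower and none higher in that comparison (median -0.81), and 14 were lower without circSlc45a4-shRNA replicate 1 or mRNA-shRNA replicate 1. Against scramble 2 were lower and none higher in circSlc45a4-shRNA cells (median -0.28), with 1 to 12 lower when 1 library was left out. In mRNA-shRNA cells 8 were higher than in scramble and none lower (median 0.45), with 4 to 18 higher when 1 library was left out. Of the 21 markers of apical progenitors, 15 were higher and none lower in circSlc45a4-shRNA cells than in scramble (median 0.81), where Dnmt3a was higher, and their mean log2 CPM was 6.41 to 6.65 there and 5.70 to 6.12 in mRNA-shRNA cells, against 5.49 to 5.70 in scramble. In the same comparison 6 of 12 markers of basal progenitors were lower and none higher (median -0.20), and 5 of the 17 markers of newborn neurons were lower and 1 higher (median -0.13). With the Xist covariate 10 apical markers were higher there, and 3 basal and 2 newborn neuron markers were lower. In mRNA-shRNA cells against scramble, where Dnmt3a passed no test, 8 apical markers were higher and none lower (median 0.37). With 1 library left out 5 to 9 were higher, and with the Xist covariate 5. In that comparison 3 basal markers were lower and none higher (median 0.09), and 6 newborn neuron markers were lower and 1 higher (median -0.29). The part of cell cycle or cell type in the differences of the members was not tested.

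**Figure D4:**
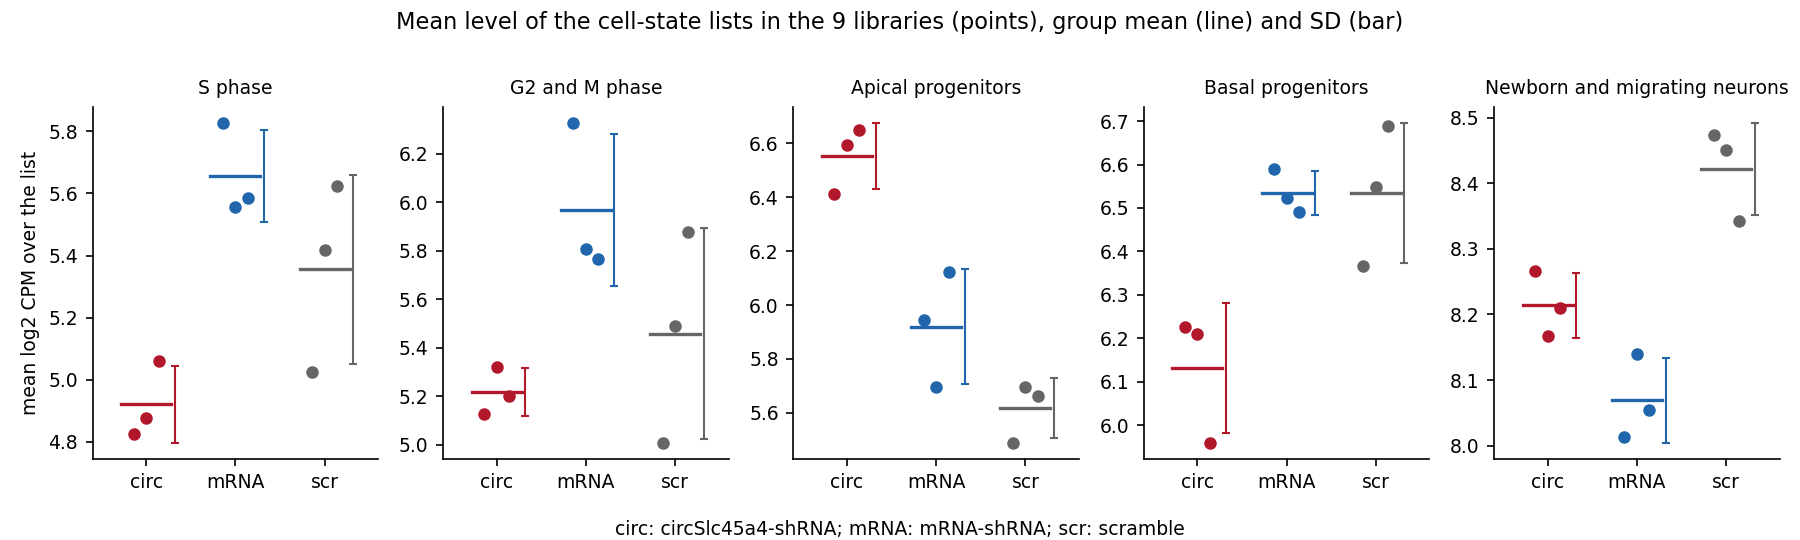
Mean log2 CPM over the genes of 5 lists in the 3 libraries of circSlc45a4-shRNA cells (circ), mRNA-shRNA cells (mRNA) and scramble (scr), with the group mean as a line and the SD as a bar (the vertical axes do not start at 0). The S phase mean is lowest in circSlc45a4-shRNA cells (4.83 to 5.06) and highest in mRNA-shRNA cells (5.56 to 5.83), and the apical progenitor mean is highest in circSlc45a4-shRNA cells.

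Genes with the most similar pattern were sought over the 9 libraries among 10997 genes, as those with the smallest root mean square difference in centred log2 CPM. For Uhrf1 they were Pask (0.05), Foxm1 (0.06), a transcription factor of G2 and M phase genes, and Racgap1 (0.09), a gene of cytokinesis. Foxm1 averaged 34.5 ± 1.82 CPM in circSlc45a4-shRNA cells, 74.8 ± 6.41 CPM in mRNA-shRNA cells and 60.6 ± 17.1 CPM in scramble (SD, n = 3 each). For Dnmt1 they were Epc1 (0.04), Hnrnpul1 (0.05) and Srsf1 (0.06), and for Ezh2 Srsf3 (0.05), Srsf1 (0.06) and Zw10 (0.06). Srsf1 and Srsf3 encode splicing factors. For Dnmt3a they were Plpp3 (0.08), Nup50 (0.09) and Slc39a1 (0.09), for Jarid2 Ogg1 (0.07), Mtg2 (0.07) and Plekha3 (0.07), and for Dnmt3b Meg3 (0.12), an imprinted long non-coding RNA, Pold1 (0.13) and Dnajc4 (0.15). These are the nearest of many genes in few libraries and are given as a description.

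The accessory subunits and regulators of PRC2, 11 tested genes, were called in both directions. In circSlc45a4-shRNA cells against scramble 4 were higher and 2 lower, and in mRNA-shRNA cells against scramble 1 was higher and 2 lower. Between the knockdowns 5 were higher and 1 lower in circSlc45a4-shRNA cells. The medians were 0.17, 0.17 and 0.15, and 27.1%, 18.0% and 26.1% of all tested genes were called, in the same order. The 2 lower in circSlc45a4-shRNA cells than in scramble were 0 without circSlc45a4-shRNA replicate 1 or scramble replicate 2, and the 1 higher in mRNA-shRNA cells was 0 without any 1 scramble replicate. With the Xist covariate 2 were higher and none lower in circSlc45a4-shRNA cells than in scramble, and 1 was lower and none higher in mRNA-shRNA cells. Phf1, a Polycomb-like protein that binds H3K36me3, averaged 45.7 ± 9.64 CPM in circSlc45a4-shRNA cells against 23.0 ± 1.70 CPM in scramble (log2 fold change 0.99 ± 0.16, edgeR adjusted p = 4.92e-04). Lcorl, which encodes a PRC2-associated protein, averaged 72.9 ± 8.25 CPM in circSlc45a4-shRNA cells against 39.9 ± 2.90 CPM in scramble (0.87 ± 0.12, edgeR adjusted p = 1.38e-04). Between the knockdowns Epop was lower, at 8.34 ± 1.28 CPM in circSlc45a4-shRNA cells against 17.6 ± 3.20 CPM in mRNA-shRNA cells (-1.08 ± 0.17, edgeR adjusted p = 5.37e-04). Rbbp7, a histone-binding subunit encoded on the X chromosome, was lower in mRNA-shRNA cells, at 95.5 ± 3.87 CPM against 140.9 ± 7.17 CPM in scramble (-0.56 ± 0.07, edgeR adjusted p = 2.33e-04). In circSlc45a4-shRNA cells Rbbp7 was lower than in scramble by -0.24 ± 0.07 (edgeR adjusted p = 0.0301). Rbbp4, of the same list, was the gene higher in mRNA-shRNA cells than in scramble (0.26 ± 0.07, edgeR adjusted p = 0.0259). Aebp2, which like Jarid2 joins the PRC2 form that lacks the Polycomb-like proteins, was lower in mRNA-shRNA cells, at 37.5 ± 2.91 CPM against 53.7 ± 3.15 CPM in scramble (-0.52 ± 0.09, edgeR adjusted p = 0.0013), a call that ended with the Xist covariate (adjusted p = 0.125).

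PRC1, the complex that ubiquitinates histone H2A and acts with PRC2, had calls in both directions as well. Of 23 subunits 5 were higher and 5 lower in circSlc45a4-shRNA cells than in scramble, and 1 was higher and 7 lower in mRNA-shRNA cells than in scramble. Between the knockdowns 7 were higher and 2 lower in circSlc45a4-shRNA cells. Of all tested genes 27.1%, 18.0% and 26.1% were called in these comparisons, in this order. The 7 lower in mRNA-shRNA cells were 3 without scramble replicate 2, and the 7 higher between the knockdowns were 3 without circSlc45a4-shRNA replicate 1. Against scramble the Xist covariate left 3 higher and 2 lower in circSlc45a4-shRNA cells, and 1 higher and none lower in mRNA-shRNA cells. Rnf2, a catalytic subunit, was read at 103, 103 and 111 CPM in circSlc45a4-shRNA cells and at 99.9, 95.2 and 103 CPM in mRNA-shRNA cells, against 59.96, 55.8 and 48.4 CPM in scramble. It was higher than scramble by 0.95 ± 0.09 and 0.86 ± 0.09 on the log2 scale (edgeR adjusted p = 7.16e-06 and 3.08e-05). Ring1, the alternative catalytic subunit, averaged 23.8 CPM in circSlc45a4-shRNA cells against 23.1 CPM in scramble (0.04 ± 0.12, edgeR adjusted p = 0.845). Pcgf3, a subunit of a variant PRC1, was read at 82.8, 80.2 and 88.4 CPM in circSlc45a4-shRNA cells and at 107.7, 114 and 122 CPM in mRNA-shRNA cells, against 163, 162 and 162 CPM in scramble. The 3 groups did not overlap, and Pcgf3 was lower than scramble by -0.95 ± 0.07 and -0.50 ± 0.07 and lower in circSlc45a4-shRNA cells than in mRNA-shRNA cells by -0.45 ± 0.07 (edgeR adjusted p = 2.43e-06, 5.24e-04 and 7.48e-04). The call in mRNA-shRNA cells against scramble ended with the Xist covariate (-0.41, edgeR adjusted p = 0.0629). Cbx7, a chromodomain protein that binds H3K27me3, averaged 3.14 ± 0.25 CPM in circSlc45a4-shRNA cells against 8.36 ± 0.86 CPM in scramble (-1.42 ± 0.17, edgeR adjusted p = 6.36e-05). The mRNA-shRNA libraries read Cbx7 at 5.19, 5.61 and 4.18 CPM, also below every scramble library. Of the H3K27 demethylases, Kdm6a, an X-linked gene that escapes X inactivation, had 63.9, 55.6 and 64.3 CPM in circSlc45a4-shRNA cells and 99.8, 69.0 and 68.4 CPM in mRNA-shRNA cells, against 52.1, 54.8 and 53.4 CPM in scramble. It was higher in mRNA-shRNA cells than in scramble (0.56 ± 0.13, edgeR adjusted p = 0.00883) but not with the Xist covariate (0.31, adjusted p = 0.383). Between the knockdowns Kdm6a was lower in circSlc45a4-shRNA cells (-0.37 ± 0.13, edgeR adjusted p = 0.0498), a call made under 7 of 18 alternatives. Its highest library was the one with the highest Xist. The mRNA-shRNA library without Xist (replicate 3, 0.194 CPM) read Kdm6a at 68.4 CPM, above every circSlc45a4-shRNA and scramble library. The cause was not tested. Kdm6b passed no test.

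Among 10 tested cofactors of DNA methylation, 4 were lower in circSlc45a4-shRNA cells than in mRNA-shRNA cells and none higher. Of all tested genes 12.3% were lower and 13.8% higher in that comparison. Hells, a chromatin remodeller needed for DNA methylation, averaged 33.1 ± 3.17 CPM in circSlc45a4-shRNA cells against 62.5 ± 17.1 CPM in mRNA-shRNA cells (log2 fold change -0.92 ± 0.17, edgeR adjusted p = 0.00188). Pcna, the replication clamp that binds Dnmt1 and that also stands in the S phase list, averaged 134 ± 18.4 CPM against 239 ± 30.4 CPM in these groups (-0.83 ± 0.14, edgeR adjusted p = 7.82e-04). Ahcy, which clears the product of methyl transfer, averaged 67.0 ± 5.92 CPM against 88.1 ± 4.65 CPM (-0.40 ± 0.08, edgeR adjusted p = 0.00372). Against scramble 1 was higher and 3 lower in circSlc45a4-shRNA cells, where 27.1% of all tested genes were called. In mRNA-shRNA cells 2 were higher and none lower, where 18.0% of all tested genes were called. With the Xist covariate none of the cofactors was called against scramble in either knockdown. The 3 lower were 1 without scramble replicate 3, and the 2 higher were 0 without mRNA-shRNA replicate 1 or scramble replicate 1 or 2. Dnmt3l, the cofactor of de novo methylation in germ cells, had 0 counts in all 9 libraries, where a count of 0 leaves room for 0.0671 to 0.143 CPM (3 counts, counting error only).

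Of 14 other genes of DNA demethylation, 1 was higher and 4 lower in each knockdown than in scramble. Between the knockdowns 3 were higher and 2 lower in circSlc45a4-shRNA cells. Of all tested genes, 27.1% were called in circSlc45a4-shRNA cells against scramble, 18.0% in mRNA-shRNA cells against scramble and 26.1% between the knockdowns. The 4 lower in circSlc45a4-shRNA cells were 1 without circSlc45a4-shRNA replicate 2, and the 4 lower in mRNA-shRNA cells were 2 without mRNA-shRNA replicate 2 or 3 or any 1 scramble replicate. With the Xist covariate none was lower than scramble in either knockdown. The 3 higher between the knockdowns were 1 without circSlc45a4-shRNA replicate 1. The gene higher in both was Tet3, the dioxygenase related to Tet1. Tet3 was read at 297, 273 and 265 CPM in circSlc45a4-shRNA cells and at 196, 225 and 235 CPM in mRNA-shRNA cells, against 123, 155 and 147 CPM in scramble, with no overlap among the 3 groups. It was higher than scramble by 0.97 ± 0.10 and 0.63 ± 0.10 on the log2 scale (edgeR adjusted p = 1.62e-05 and 8.46e-04). Tet2 averaged 62.2 ± 6.74 CPM in mRNA-shRNA cells against 84.8 ± 5.64 CPM in scramble (-0.45 ± 0.12, edgeR adjusted p = 0.0182), a call that ended without mRNA-shRNA replicate 2 (-0.36, adjusted p = 0.0677) or scramble replicate 3 (-0.39, 0.0699) and with the Xist covariate (-0.35, 0.338). The circSlc45a4-shRNA libraries read Tet2 at 71.8, 53.7 and 71.3 CPM, also below every scramble library. Neil3, a DNA glycosylase, averaged 10.9 ± 2.31 CPM in circSlc45a4-shRNA cells against 26.2 ± 3.67 CPM in mRNA-shRNA cells (-1.26 ± 0.24, edgeR adjusted p = 0.00198). Of 7 readers of methylated CpG, 1 was higher in circSlc45a4-shRNA cells than in scramble and 2 were higher than in mRNA-shRNA cells. Of all tested genes 14.1% and 13.8% were higher in these comparisons. Zbtb4, a zinc finger protein that binds methylated DNA, passed both tests, with 29.1 ± 2.32 CPM in circSlc45a4-shRNA cells, 20.3 ± 1.06 CPM in mRNA-shRNA cells and 21.1 ± 1.90 CPM in scramble. Its log2 fold changes were 0.47 ± 0.11 against scramble and 0.52 ± 0.11 between the knockdowns (edgeR adjusted p = 0.00571 and 0.00315), and that against scramble ended with the Xist covariate (0.51, adjusted p = 0.142).

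**Figure D5:**
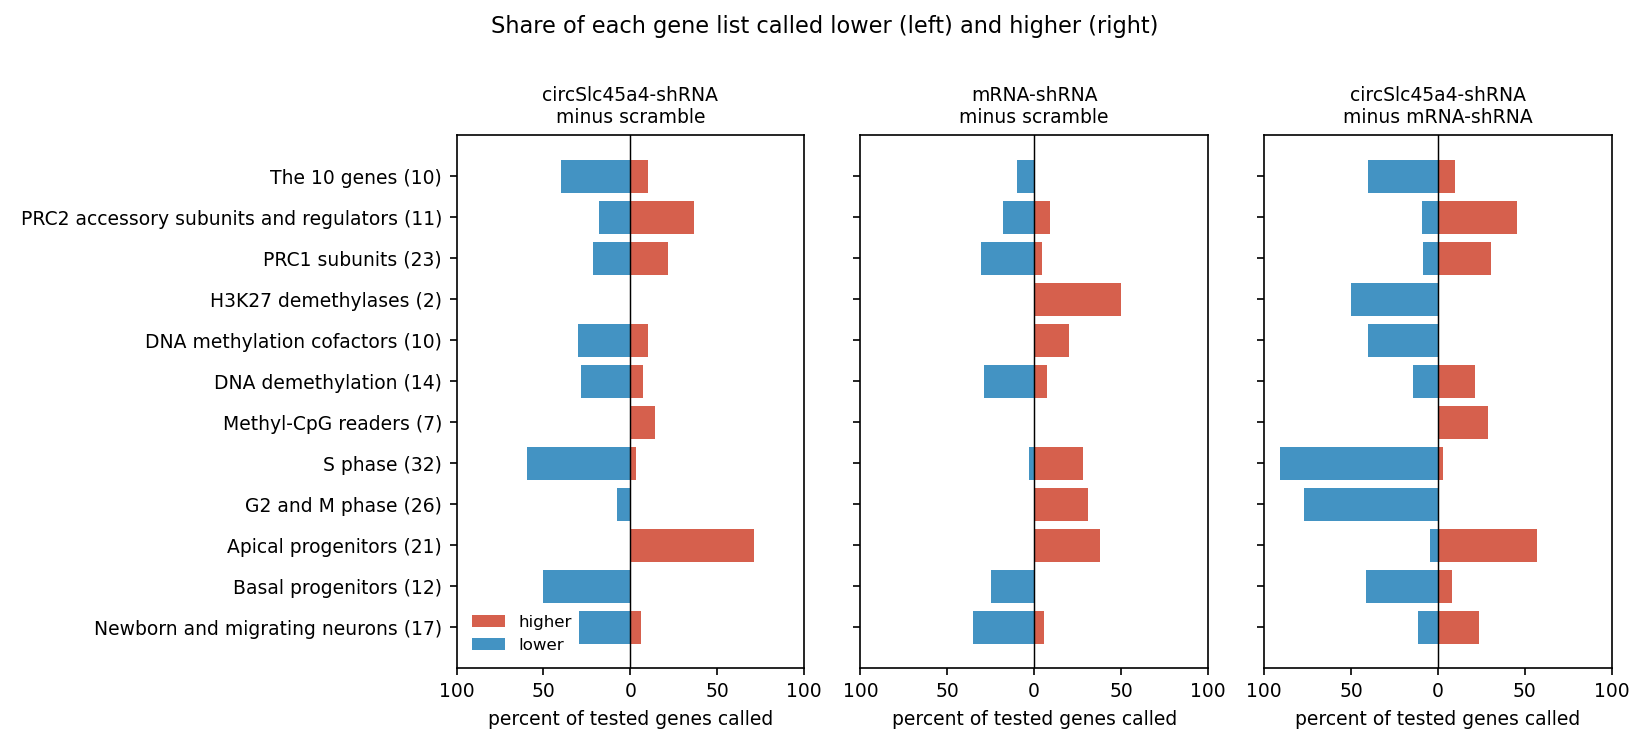
Percent of the tested genes of each list (number of genes in brackets) that were called lower (blue, to the left) and higher (red, to the right) by the edgeR test in the 3 comparisons. The S phase list is mostly lower in circSlc45a4-shRNA cells (19 of 32 against scramble, 29 of 32 against mRNA-shRNA cells), and PRC2 accessory and PRC1 genes have calls on both sides.

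Known targets of PRC2 and of DNA methylation were looked at last. Of 39 Hox genes, the classical targets of PRC2 outside the hindbrain and body, 36 had no count in any library and none was tested. Hoxb1, Hoxc4 and Hoxc6 made up all Hox counts, with 9, 5 and 1 counts in replicates 1, 2 and 3 of circSlc45a4-shRNA cells, 0 in mRNA-shRNA cells, and 0, 0 and 1 in those of scramble. Cdkn2a and Cdkn2b, cell cycle inhibitors repressed by Polycomb in progenitors, had at most 5 counts in a library. Of 16 germline genes whose promoters are kept methylated in somatic cells, 6 had no count in any library and 3 passed the filter and were tested, Tdrd1, Brdt and Ddx4, which had up to 106, 98 and 61 counts in a library. Ddx4 passed no test. Tdrd1 was read at 0.224, 0.301 and 0.402 CPM in circSlc45a4-shRNA cells and at 0.893, 0.944 and 1.33 CPM in mRNA-shRNA cells, against 2.49, 3.43 and 1.36 CPM in scramble. It was lower in circSlc45a4-shRNA cells than in scramble (log2 fold change -2.96 ± 0.42, edgeR adjusted p = 2.31e-04) and than in mRNA-shRNA cells (-1.76 ± 0.43, adjusted p = 0.00867). The first of these ended with the Xist covariate (-2.45, edgeR adjusted p = 0.0628). In mRNA-shRNA cells against scramble Tdrd1 had -1.20 ± 0.38 (edgeR adjusted p = 0.0461), a call made under 8 of 18 alternatives. Brdt went the other way, at 2.19, 2.02 and 2.10 CPM in circSlc45a4-shRNA cells and 2.26, 2.21 and 1.36 CPM in mRNA-shRNA cells, against 1.24, 1.30 and 1.11 CPM in scramble. It was higher in circSlc45a4-shRNA cells than in scramble (0.79 ± 0.28, edgeR adjusted p = 0.0483), a call made under 6 of 18 alternatives. DNA methylation and H3K27me3 themselves were not measured.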

How the data were processed

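PolyA RNA of sorted GFP+ cells was sequenced in 9 libraries, 3 for each of 3 groups. The authors deposited 1 table of unnormalized gene counts, in whole reads. The submitters' processing notes list mm10, DESeq2, STAR 2.4.2a and bcl2fastq 2.17.1.14, without their roles. Counter, annotation release and strand setting were not given in the sources used here, so reads of overlapping antisense genes cannot be separated (such genes near the members had at most 54 counts in a library). IDs were named with GENCODE (GRCm38, the assembly of mm10) without version suffix; 53274 of 53379 had a symbol.

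Genes were filtered with filterByExpr (minimum count 10, by group) and tested with the quasi-likelihood F test of edgeR 4.0.16 (R 4.3.3; TMM; all 9 libraries, 6 residual degrees of freedom), with Benjamini-Hochberg adjustment over 17760 genes and a threshold of 0.05. The common biological coefficient of variation was 13.9%. The script was tested on simulated data, where 42% to 46% of 1.5-fold changes and 65% to 73% of 2-fold changes were recovered in each comparison. Only 100 genes were changed at each fold there, far fewer than the 3200 to 4814 genes called in the data. These shares therefore do not measure the recovery of the tests reported here. RPKM uses the union of exons. A count of 0 allows up to 3 counts, counting error only. Alternatives were DESeq2 1.42.0 size factors (RLE) and Wald test, upper-quartile factors, limma-voom 3.58.1, other filters, 6 libraries, a replicate block, an Xist covariate and leaving out each library. The labels call the replicates biological and give no litter or animal. No replicate was a duplicate of another.

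The members and lists were chosen with earlier results of these data known. Named genes are all 10 members, up to 4 called genes with the smallest p per list and comparison (some left out here), Slc45a4, and the 3 nearest in pattern to each called member. Xist was added because its level differed between the libraries.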

Additional observations from a re-analysis of the deposited data

How the results depend on the processing

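Over 18 alternatives, 490 of 540 fold changes of the members kept direction and side of the threshold, 22 lost and 11 gained a call and 17 changed sign. The 5 members called in circSlc45a4-shRNA cells against scramble were 3 with the replicate block, which ended the calls of Dnmt1 (adjusted p = 0.0565) and Dnmt3b (adjusted p = 0.0515), 0 with the Xist level as a covariate, and 3 to 6 when 1 library was left out, with 3 without circSlc45a4-shRNA replicate 2 or scramble replicate 2 or 3. With the covariate Uhrf1 had -0.82 (edgeR adjusted p = 0.134) and Dnmt3a 0.63 (adjusted p = 0.0648), and 1199 of all genes tested were called. Xist level and group could not be told apart in that comparison. In mRNA-shRNA cells against scramble the 1 call became 2 with the Wald test of DESeq2, with a filter of 1 CPM in 3 libraries and with the replicate block, 3 without a filter, and 1 to 3 when 1 library was left out, with 3 without mRNA-shRNA replicate 2 and 2 without scramble replicate 3. Between circSlc45a4-shRNA and mRNA-shRNA cells 4 or 5 members were called throughout, and Uhrf1, Dnmt1, Ezh2 and Dnmt3a in all 18. The block also ended the Dnmt3b call there (adjusted p = 0.0514) and gave Tet1 in mRNA-shRNA cells against scramble an adjusted p of 0.0413. Numbers did not pair the samples: deviations of libraries with the same number correlated at -0.14 to 0.12, over 0.1 in 1 of 9 pairs. The changes of sign were all of uncalled values. Ezh1 ranged over single left-out libraries from -0.18 to 0.0076 (without scramble replicate 2) in circSlc45a4-shRNA cells against scramble and from -0.019 (without scramble replicate 3) to 0.16 in mRNA-shRNA cells against scramble. Suz12 ranged from -0.14 to 0.014 (without mRNA-shRNA replicate 2 or 3) in mRNA-shRNA cells against scramble, and from -0.080 to 0.074 between circSlc45a4-shRNA and mRNA-shRNA cells. Dnmt3b in mRNA-shRNA cells against scramble had -0.000784 with RLE factors, -0.00485 with limma-voom, -0.000962 with DESeq2, -0.00599 with 6 libraries, -0.00457 with the replicate block, -0.15 with the Xist covariate and -0.14 to 0.16 with 1 library left out. The log2 ratio of Ezh2 to Ezh1 differed by -0.27 to 0.031 (without scramble replicate 3) in circSlc45a4-shRNA cells against scramble, and by -0.079 (without scramble replicate 2) to 0.22 in mRNA-shRNA cells against scramble. The cause of these changes was not tested. For the genes and lists outside the members the same alternatives were chosen after seeing the data. Depth limits Dnmt3b most of the members, with at least 97 counts in each library.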
